A study of Homo sapiens with 8 samples.

Results

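Metallothioneins of the chromosome 16 cluster were examined together with MTF1, their metal-sensing transcription factor, and SLC30A1, a zinc exporter. The set comprised 8 named genes (MT1E, MT1F, MT1G, MT1M, MT1X, MT2A, MTF1 and SLC30A1) of the 28395 in the deposited table, matched by Entrez identifier, and all 8 were found. The cells were A-498, an established human kidney cancer line. Control line 1 and control line 2 were labelled wild type and carried a first and a second non-targeting single guide RNA. The lines called here KO-labelled line 1 and KO-labelled line 2 were labelled ANXA4 knockout and carried a first and a second guide RNA against ANXA4, the gene of the calcium-dependent membrane-binding protein annexin A4. Each line gave 2 replicates, 8 libraries of polyA RNA in all, taken 24 hours after seeding of equalized cell numbers in non-confluent culture. A guide was represented by 1 line, so a guide and a line cannot be told apart. The labels do not say whether replicates were separate cultures, so p-values measure the spread between these samples, which may be technical.

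Metallothioneins are small cysteine-rich proteins that bind zinc and copper and sequester cadmium. When free zinc rises, the zinc finger protein MTF1 binds metal response elements in the promoters of metallothionein genes and of SLC30A1, which encodes a zinc exporter of the plasma membrane. In the kidney, metallothioneins of the proximal tubule retain cadmium. Their genes also respond to glucocorticoids and to oxidants.

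The promoters of the expressed cluster genes and of the exporter are shown first, because a shared regulator is known for them. Each sequence is the 250 bases before the annotated gene start (RefSeq, GRCh38.p14), read 5′ to 3′ on the strand of the gene. Capitals mark the core of the metal response element, TGCACNC or TGCGCNC on either strand. MT1H is included as a cluster gene with 0 reads in all 8 libraries. It has the most cores of the 3 such genes with a promoter entry, and MT1B and MT4, also at 0 reads, are given by their counts. The windows are chr16:56608334-56608583 (+ strand) for MT2A, chr16:56682220-56682469 (+ strand) for MT1X, chr16:56669564-56669813 (+ strand) for MT1H and chr1:211579162-211579411 (- strand) for SLC30A1.
MT2A: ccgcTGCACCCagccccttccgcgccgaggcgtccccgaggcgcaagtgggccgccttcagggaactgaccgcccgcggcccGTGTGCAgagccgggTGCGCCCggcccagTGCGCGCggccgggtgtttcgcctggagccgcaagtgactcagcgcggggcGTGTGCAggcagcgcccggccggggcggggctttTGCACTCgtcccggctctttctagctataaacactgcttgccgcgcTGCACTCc
MT1X: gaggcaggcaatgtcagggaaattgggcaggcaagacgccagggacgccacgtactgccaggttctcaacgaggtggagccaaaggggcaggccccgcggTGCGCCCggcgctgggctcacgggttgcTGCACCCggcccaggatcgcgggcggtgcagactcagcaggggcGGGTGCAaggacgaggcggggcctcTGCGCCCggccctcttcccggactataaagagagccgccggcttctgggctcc
MT1H: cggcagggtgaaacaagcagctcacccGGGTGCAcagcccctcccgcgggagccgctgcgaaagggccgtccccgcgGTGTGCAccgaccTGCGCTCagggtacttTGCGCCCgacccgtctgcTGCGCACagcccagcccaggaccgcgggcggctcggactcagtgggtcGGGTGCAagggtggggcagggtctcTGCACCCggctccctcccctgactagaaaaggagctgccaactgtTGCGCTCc
SLC30A1: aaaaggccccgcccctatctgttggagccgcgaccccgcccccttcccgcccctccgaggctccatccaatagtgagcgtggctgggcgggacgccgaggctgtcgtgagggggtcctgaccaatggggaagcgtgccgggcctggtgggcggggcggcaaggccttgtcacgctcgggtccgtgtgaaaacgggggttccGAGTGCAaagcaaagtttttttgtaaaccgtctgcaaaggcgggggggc

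The core was found 7 times before MT2A, 4 times before MT1X, 8 times before MT1H, 3 times before MT1B, 3 times before MT4, once before SLC30A1 and 0 times before MTF1, with no overlap between cores. Of 35116 promoters of the same length in the RefSeq table, 24.8% held at least 1 core, 1.58% held at least 3 and 0.12% at least 5. The antioxidant response element core (TGACNNNGC on either strand) occurred once each before MT2A, MT1X, SLC30A1 and MT1B. It occurred 0 times before MT1H, MT4 and MTF1, and in 10.9% of all promoters. The GC box (GGGCGG on either strand) occurred 2 times before MT2A and 2 times before MT1X, where 1 of them overlapped a metal response element core. It occurred once before MT1H, once before MT1B, 0 times before MT4, 6 times before SLC30A1 and once before MTF1. It was present in 42.6% of all promoters. These matches describe letters in a window and not binding. A promoter sequence was matched for 4 of the 8 genes (MT2A, MT1X, MTF1 and SLC30A1).

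Depth ranged from 15784890 to 22631588 reads per library. Mitochondrial genes took 4.67% to 9.05% of the reads in 7 libraries and 13.8% in replicate 2 of KO-labelled line 2, which stood apart in this measure. The transcript of the targeted gene was low in 1 KO-labelled line and within the control range in the other. These counts are of RNA, and the protein was not measured here. ANXA4 was at 236 and 234 normalized counts in KO-labelled line 1, at 3433 and 4142 in KO-labelled line 2, and between 2821 and 6773 in the 4 control libraries. Directions given here for KO-labelled line 2 therefore refer to its label. The kidney lineage factor PAX8 was at 2987 to 4476 normalized counts and PAX2 at 232 to 412, while EPCAM was at most 9.46 and the hypoxia-induced carbonic anhydrase gene CA9 at most 24.8. The keratin genes KRT8 and KRT18 were at 16747 to 31461 and 6032 to 13291. The leukocyte gene PTPRC was at most 1.21 and the endothelial gene PECAM1 at most 4.53. Another gene of the leukocyte list, CD68, was at 1784 to 4409.

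Among the metallothionein genes, MT2A and MT1X were the expressed ones, and the other members were at or near 0. MT1E and MT1M, isoform genes of the MT1 group, had 0 reads in all 8 libraries. A count of 0 allows up to 3 reads, which is 2.35 to 3.62 normalized counts depending on the library and covers counting error only. MT1G had 1 read in replicate 1 of control line 1 and 0 in the other 7 libraries. MT1F had 4 reads (4.83 normalized counts) in replicate 2 of KO-labelled line 2, 1 read each in replicate 2 of control line 1, replicate 2 of KO-labelled line 1 and replicate 1 of KO-labelled line 2, and 0 in the other 4. At this depth no difference between lines was detectable for these 4 genes, which did not pass the filter on low values (at least 10 normalized counts in at least 2 libraries).

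Further metallothionein genes in the table were silent to the same limit, all in the cluster but MT1HL1, which lies on chromosome 1. Of 15 further metallothionein genes and pseudogenes on a list, 10 were in the table, and all 10 had 0 reads in every library (MT1A, MT1B, MT1H, MT1HL1, MT1L, MT1DP, MT1IP, MT1JP, MT3 and MT4). The family is closely related in sequence, and reads that fit several copies can be lost or assigned to another copy. For MT1E, MT1F, MT1G, MT1M, MT2A, MT1A, MT1H and MT3, 100% of the 100-base stretches of the longest coding transcript (GENCODE 29) were absent from transcripts of all other genes. For 50-base stretches the shares were 89.4% for MT1E, 96.4% for MT1F, 85.7% for MT1G, 92.9% for MT1M and 95.1% for MT2A. MT1X was unique in 49.2% of its 100-base stretches, and the rest were shared with transcripts of 1 other annotated gene. The counts of MT1X are uncertain to that extent.

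MT2A (Entrez gene 4502, chr16:56608584-56609497), the most widely expressed metallothionein gene, had 5511 and 8963 normalized counts in replicates 1 and 2 of control line 1. In control line 2 it had 2969 and 4979. KO-labelled line 1 gave 2509 and 4030, and KO-labelled line 2 gave 2922 and 8252. Within each replicate number control line 1 was the highest and KO-labelled line 1 the lowest, and the KO-labelled and control libraries overlapped. These values came from 2825 to 8618 reads, 0.0142% to 0.0489% of a library.

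MT1X (Entrez gene 4501, chr16:56682470-56684196) followed a similar order at a lower count. Control line 1 had 538 and 976 normalized counts, and control line 2 had 214 and 266. KO-labelled line 1 had 167 and 280, and KO-labelled line 2 had 182 and 558. Control line 1 was again above the other lines within each replicate number, and the arms overlapped. Over the 8 libraries the log2 values of MT1X and MT2A had a Pearson's r of 0.95, given as a description of libraries that share lines, replicate numbers and depth. Per 100 MT2A reads there were 9.76 and 10.9 MT1X reads in control line 1, and between 5.35 and 7.22 in the other 6 libraries.

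SLC30A1 (Entrez gene 7779, chromosome 1) was measured at 445 and 541 normalized counts for control line 1 and at 650 and 476 for its counterpart, control line 2. KO-labelled line 1 gave 919 and 945, above all other libraries. KO-labelled line 2 gave 499.5 and 375, and its range overlapped that of the control lines. MTF1 (Entrez gene 4520, chromosome 1) varied least of the 4, 1.72-fold between the lowest and highest library, against 2.52-fold for SLC30A1, 3.57-fold for MT2A and 5.85-fold for MT1X. Its values were 439 and 388 normalized counts for control line 1, 493 and 315 for control line 2, 496 and 543 for KO-labelled line 1, and 472 and 351 for KO-labelled line 2.

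**Figure D1:**
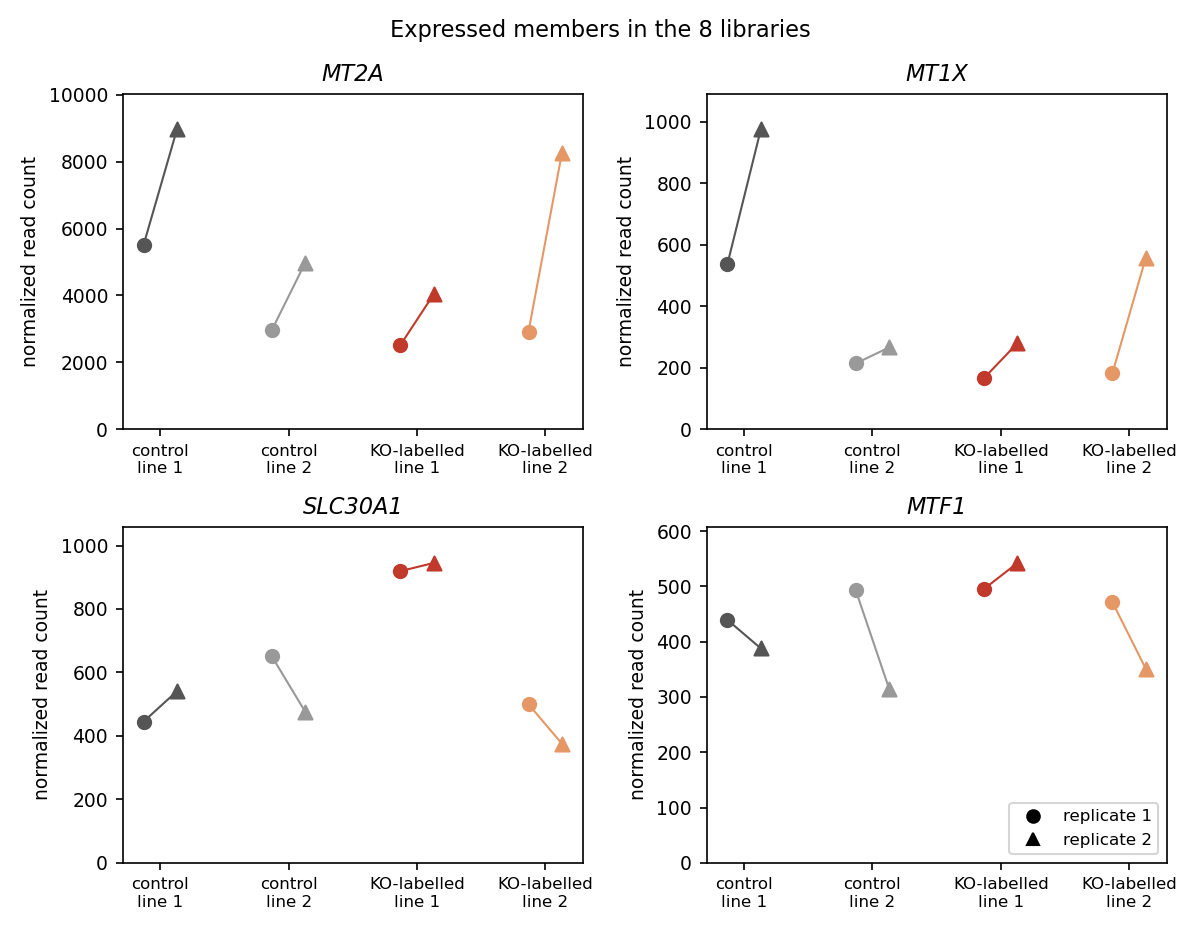
Normalized read counts (y axis, from 0) of MT2A, MT1X, SLC30A1 and MTF1 in the 4 lines (x axis), with circles for replicate 1, triangles for replicate 2 and a line joining the replicates of a line. MT2A and MT1X are higher in replicate 2 than in replicate 1 of every line, and SLC30A1 is above all other libraries in KO-labelled line 1, at 919 and 945.

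Levels of different genes were compared per kb of annotated exon (GENCODE 29). MT2A was at 3862 ± 1889 normalized counts per kb (SD, n = 8 libraries), MT1X at 224 ± 157, SLC30A1 at 111 ± 39.5 and MTF1 at 54.5 ± 9.83. MT2A, at 1932 to 6900 per kb, did not overlap MT1X, at 94.0 to 550. MT1X overlapped SLC30A1, at 68.6 to 173, on this length. With the length of the longest coding transcript in its place, MT1X was at 310 to 1813 per kb and lay above SLC30A1. SLC30A1 and MTF1 were neighbours in this order, and MTF1, at 39.3 to 67.6, lay below the lowest SLC30A1 library by a small margin.

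Loss of ANXA4 was the question of the study, so the KO-labelled arm was compared with the control arm first. None of the 4 tested members was called, where a call is a limma adjusted p under 0.05 over 14040 genes and 0.235% of all tested genes were called (0.128% as higher and 0.107% as lower). None had an unadjusted limma p under 0.05 (0 of 4), and edgeR, DESeq2 and the replicate block (0.264% of genes called) also gave 0 calls. MT2A averaged 4428 ± 2629 over KO-labelled and 5606 ± 2492 over control libraries (SD, n = 4 per arm). Its log2 fold change, here and below on the log2(value + 1) scale, was -0.40 (95% interval -1.47 to 0.68, limma adjusted p 0.840). MT1X averaged 297 ± 181 against 498 ± 348, with -0.66 as its log2 fold change (-1.93 to 0.61, limma adjusted p 0.743). SLC30A1 averaged 685 ± 290 against 528 ± 90.9 (log2 fold change 0.28, -0.39 to 0.96, limma adjusted p 0.810). MTF1 averaged 465 ± 81.5 against 409 ± 75.9 (log2 fold change 0.19, -0.32 to 0.69, limma adjusted p 0.837). The intervals of MT2A and MT1X reach beyond a 2-fold fall, so a difference of that size was not detectable here. A lower level in bulk RNA cannot separate fewer expressing cells from less RNA per cell. For all 4 genes the arms overlapped, and 10.6% of tested genes had arms that did not (5.11% with the KO-labelled libraries above, 5.51% below).

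The KO-labelled lines were next set against both control lines one at a time. SLC30A1 rose in KO-labelled line 1, from 528 ± 90.9 over the control libraries (SD, n = 4) to 932 ± 18.3 (SD, n = 2), with log2 fold change 0.83, SE 0.18 and a limma adjusted p of 0.0286. It was the 1 of the 4 tested members called in this line, where 7.01% of all genes were called (3.82% as higher and 3.18% as lower). Blocking on replicate number gave a limma adjusted p of 0.00178. The call rested on single libraries, since without replicate 1 or 2 of control line 1, replicate 2 of control line 2, or replicate 1 or 2 of KO-labelled line 1 it was lost, with limma adjusted p-values up to 0.201. Over all 8 such fits the log2 fold change stayed between 0.72 and 0.95. Single genes from lists of other cell types also differed in this line, COL1A1 by -2.28 and MAP2 by 1.37 on the log2 scale (limma adjusted p 0.000968 and 0.00112), while the other tested neural marker, GFAP, had -0.35 (limma adjusted p 0.634). COL1A1 and MAP2 were also called in KO-labelled line 2, at -1.03 and -0.95 (limma adjusted p 0.0180 and 0.00399). MAP2 thus had opposite signs in the KO-labelled lines. The 5 fibroblast markers summed to 552 to 1429 normalized counts in control and 179 to 515 in KO-labelled libraries, nearly all of it COL1A1, with LUM at 0 and DCN at most 1.21. The 3 neural markers summed to 412 to 574 and 248 to 1245, with SOX10 at most 1.13. Their part in the result was not tested.

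In the same line the log2 fold change was -0.71 for MT2A (SE 0.41, limma adjusted p 0.334) and -0.94 for MT1X (SE 0.43, limma adjusted p 0.224), which were not calls. Taken within replicate 1 and within replicate 2, the difference from the averaged controls was -0.69 and -0.73 for MT2A, and -1.02 and -0.86 for MT1X. A block on the replicate number removes the shared step between replicates, and under it both were called as lower, at limma adjusted p-values of 0.00478 for MT2A and 0.00519 for MT1X, in a fit that called 24.4% of all genes. The values of KO-labelled line 1 were not below both control lines throughout. In replicate 2 MT1X was at 280 there against 266 in control line 2. Leaving out 1 library moved the unblocked log2 fold change to between -1.05 and -0.37 for MT2A and between -1.31 and -0.57 for MT1X, and the control lines differed from each other by -0.87 and -1.60. For MTF1 the log2 fold change was 0.36 (SE 0.20), with a limma adjusted p of 0.316 and of 0.0940 in the blocked fit.

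KO-labelled line 2 had 0 of the 4 tested members called against the control lines, by limma with and without the replicate block, by edgeR and by DESeq2, and 0 of them had an unadjusted limma p under 0.05. Of all genes, 11.2% were called in this comparison (4.54% as higher and 6.67% as lower), and 27.4% with the block. Log2 fold changes were -0.08 for MT2A (95% interval -1.02 to 0.85), -0.38 for MT1X (-1.36 to 0.59), -0.27 for SLC30A1 (-0.67 to 0.13) and 0.01 for MTF1 (-0.45 to 0.47), with limma adjusted p-values from 0.379 to 0.976. The replicates disagreed in sign for the metallothionein genes. MT2A was 0.47 below the mean of the controls in replicate 1 and 0.30 above it in replicate 2, the library with 13.8% mitochondrial reads. Without that library the log2 fold change of MT2A was -0.83, and without replicate 1 of the line it was 0.67. MT1X gave -1.19 and 0.42 in these fits. None of the 4 values was a call.

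The direct comparison of the KO-labelled lines tests whether their effects differ. SLC30A1 was lower in KO-labelled line 2, at 437 ± 87.8 against 932 ± 18.3 (SD, n = 2 per line), and the log2 difference was -1.10 (SE 0.20, limma adjusted p 0.0195). In this comparison 6.94% of all genes were called (2.41% as higher and 4.53% as lower). The call was lost without replicate 1 or 2 of KO-labelled line 1 or replicate 2 of KO-labelled line 2, at limma adjusted p-values up to 0.146. For MT2A the log2 difference was 0.63 (SE 0.48) and the limma adjusted p 0.457, against 0.0194 under the replicate block, a fit with 24.5% of genes called. The difference was 0.22 within replicate 1 and 1.03 within replicate 2, and it was -0.12 without replicate 2 of KO-labelled line 2. It was 0.56 for MT1X (SE 0.50, limma adjusted p 0.527) and -0.35 for MTF1 (SE 0.23, limma adjusted p 0.397).

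**Figure D2:**
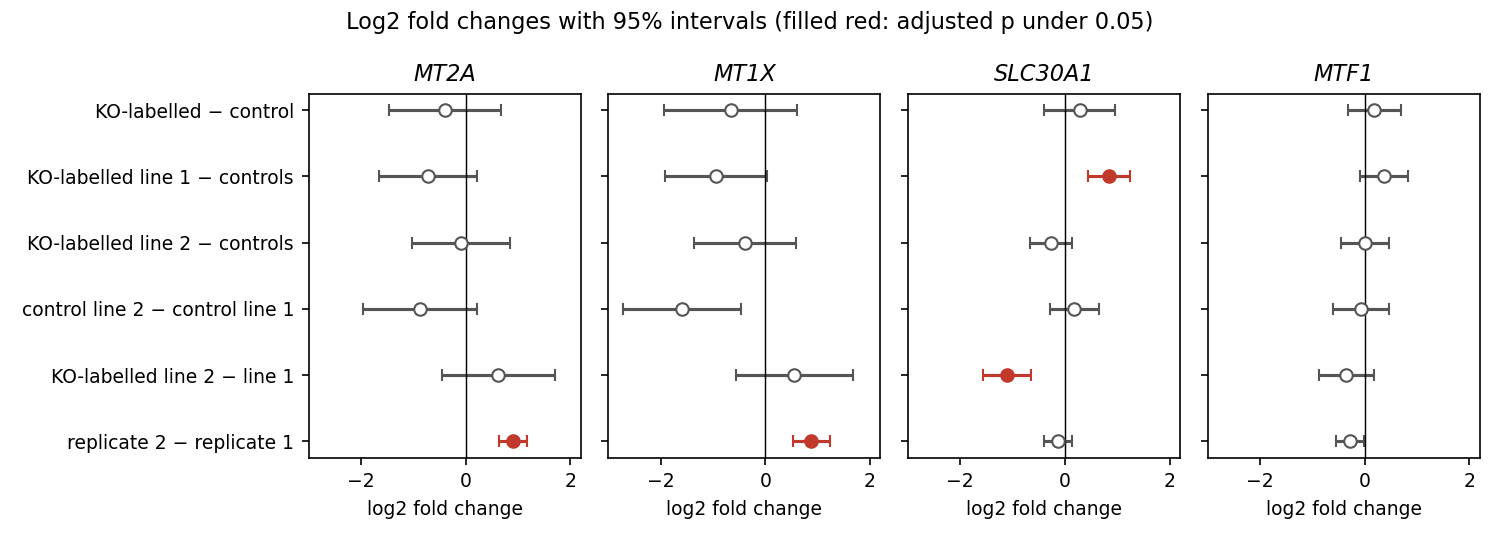
Log2 fold changes on the log2(value + 1) scale (x axis) with 95% intervals for MT2A, MT1X, SLC30A1 and MTF1 in the 6 comparisons (rows); filled red points have a limma adjusted p under 0.05. MT2A and MT1X are called between the replicates (0.91 and 0.88), and SLC30A1 is called in KO-labelled line 1 (0.83) and between the KO-labelled lines (-1.10).

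The control lines, neither of which carries a guide against ANXA4, were set against each other. MT2A averaged 7237 ± 2441 in control line 1 and 3974 ± 1421 in control line 2 (SD, n = 2 per line), and the log2 difference was -0.87 (SE 0.48, limma adjusted p 0.454). MT1X averaged 757 ± 309 and 240 ± 36.8, and its log2 difference was -1.60 (SE 0.50, limma adjusted p 0.149). Under the replicate block both were called, at limma adjusted p-values of 0.00646 for MT2A and 0.00113 for MT1X, with 12.5% of all genes called. Without the block 0 of 4 members were called by limma, edgeR or DESeq2, 1 of them (MT1X) had an unadjusted limma p under 0.05, and 2.13% of all genes were called (1.05% as higher and 1.08% as lower). Leaving out replicate 1 or replicate 2 of KO-labelled line 2, which enters only the shared spread, also gave a call for MT1X, at limma adjusted p-values down to 0.0436. The log2 difference was 0.18 for SLC30A1 and -0.07 for MTF1, with limma adjusted p-values of 0.798 and 0.953.

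Most genes of chromosome 16 were also lower in control line 2. Of 650 tested genes on it, 569 were lower in control line 2, with a median log2 difference of -0.37 against -0.00107 over all genes. Among the 10 nearest tested genes on each side of the metallothionein cluster, 19 of 20 were lower, with a median of -0.45, and 1 of them, the noncoding RNA gene CRNDE, was called (-1.08, limma adjusted p 0.0320). With the replicate number blocked, 11 of the 20 were called, all lower, where 12.5% of all genes were called. NUP93, a nuclear pore gene just beyond MT1X, differed by -0.60, and BBS2, before the cluster, by -0.29. The differences of MT2A (-0.87, SE 0.48) and MT1X (-1.60, SE 0.50) exceeded the median of the neighbours in size. MT2A lay within the range of the neighbours, with CRNDE (-1.08) and MMP2 (-0.92) further from 0. No neighbour was further from 0 than MT1X. The part that the chromosome-wide shift has in the differences of MT2A and MT1X was not tested. In KO-labelled line 1 against control the median was 0.07 for the neighbours and 0.15 for chromosome 16. MT2A (-0.71) and MT1X (-0.94) were opposite in sign to these medians, as were 6 of the 20 neighbours. Those included MMP2 (-1.36), GNAO1 (-0.99) and LPCAT2 (-0.88). LPCAT2 was the 1 neighbour called, as lower (limma adjusted p 0.0242), where 7.01% of all genes were called. In KO-labelled line 2 against control the medians of the neighbours and of chromosome 16 were 0.15 and 0.25, and between the arms they were 0.15 and 0.20. The control side of these comparisons includes control line 2, in which most chromosome 16 genes were lower than in control line 1. The part of that shift in these medians was not tested.

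Between the replicates MT2A and MT1X were called, 2 of the 4 tested members, where 17.6% of all genes were called (8.97% as higher and 8.62% as lower). MT2A rose from 3478 ± 1371 in replicate 1 to 6556 ± 2418 in replicate 2 (SD, n = 4 lines), with log2 fold change 0.91, SE 0.12 and a limma adjusted p of 0.00100. MT1X rose from 275 ± 176 to 520 ± 332, with log2 fold change 0.88, SE 0.16 and a limma adjusted p of 0.00507. Both were higher in replicate 2 in 4 of 4 lines, as were 20.2% of all tested genes, while 19.3% were lower in 4 of 4. Their calls needed the line as a block, and without it the limma adjusted p-values were 0.352 and 0.506. With libraries scaled to equal totals, 29.9% of the called genes were higher in replicate 2, against 51.0% as deposited, and both metallothionein genes were still called.

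Single lines differed in the size of this step. For MT2A replicate 2 was 1.63 and 1.68 times replicate 1 in control lines 1 and 2, 1.61 times in KO-labelled line 1 and 2.82 times in KO-labelled line 2. For MT1X the ratios were 1.81, 1.24, 1.68 and 3.06 in the same order. The step in KO-labelled line 2 involved the library with 13.8% mitochondrial reads, and its part in the result was not tested. In the 8 fits that each left out 1 library, MT2A was called each time with a log2 fold change of 0.71 to 0.98, and MT1X each time with 0.64 to 1.07.

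SLC30A1 and MTF1 were not called between the replicates. SLC30A1 had a log2 fold change of -0.14 (95% interval -0.40 to 0.13, limma adjusted p 0.455), with higher values in replicate 2 of control line 1 and KO-labelled line 1 and lower values in the other 2 lines. That of MTF1 was -0.28 (-0.54 to -0.02, limma adjusted p 0.124). It was lower in replicate 2 in 3 of 4 lines. Neighbouring genes of the cluster had a median of -0.12 between replicates, with 5 of 20 above 0 and 2 called, both as lower (GNAO1 and HERPUD1). Of all tested genes, 50.2% were above 0 and 17.6% were called (8.62% as lower).

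**Figure D3:**
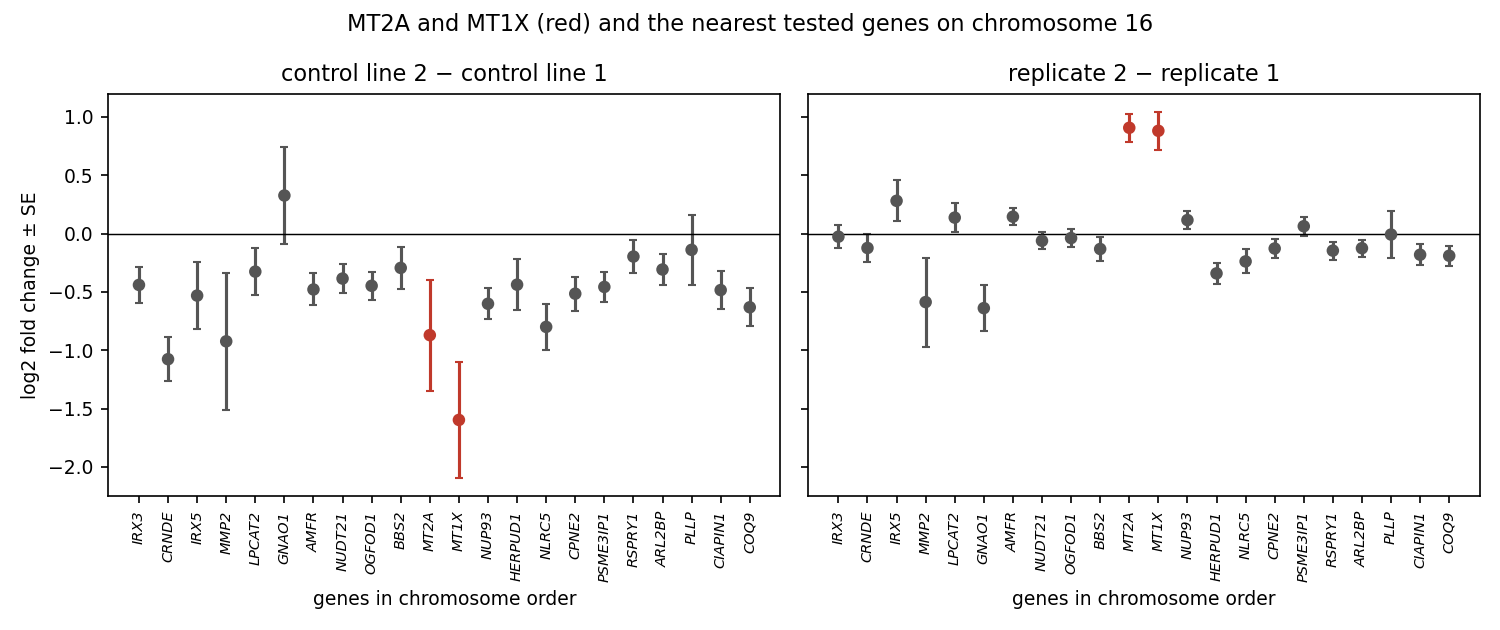
Log2 fold change ± SE (y axis) of MT2A and MT1X (red) and of the 10 nearest tested genes on each side (grey), in chromosome order (x axis), for control line 2 against control line 1 (left) and replicate 2 against replicate 1 (right). On the left 19 of 20 neighbours lie below 0 with the metallothionein genes, and on the right MT2A (0.91) and MT1X (0.88) lie above all of them.

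Other zinc transporters were followed from lists. Of 9 further SLC30 genes, which move zinc out of the cytosol, 6 were tested. In KO-labelled line 1 none of the 6 was called (median 0.08, against -0.000869 over all genes, 1 of the 6 at an unadjusted limma p under 0.05, 0 called by edgeR or DESeq2). Under the replicate block 1 was called there, SLC30A3, as lower (log2 fold change -0.79, limma adjusted p 0.0202), where 24.4% of all genes were called. In KO-labelled line 2 there were 2 of 6, both lower, with and without the block, against 11.2% of all genes called (6.67% as lower). SLC30A3, a vesicular zinc transporter, was at 25.9 and 32.6 normalized counts there against 80.9 to 106 in control (log2 fold change -1.61, limma adjusted p 0.00378). SLC30A6, a transporter of the secretory pathway, was at 604 and 701 against 958 to 1155 (log2 fold change -0.72, limma adjusted p 0.00855). SLC30A6 was also lower in KO-labelled line 2 than in KO-labelled line 1 (-0.74, limma adjusted p 0.0219).

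Of 14 SLC39 genes, which bring zinc into the cytosol, 10 were tested. SLC39A10 was at 859 and 1051 in KO-labelled line 2 against 1337 to 1832 in control (log2 fold change -0.69, limma adjusted p 0.0227). It was also lower there than in KO-labelled line 1 (-0.95, limma adjusted p 0.0197). The importers had a median of 0.03 in KO-labelled line 2 and 0.19 in KO-labelled line 1. SLC39A3 was the 1 importer gene of 10 called in KO-labelled line 1, at -0.53 (limma adjusted p 0.0405), where 7.01% of all genes were called. Under the replicate block 5 were called there, against 24.4% of all genes. Of these, SLC39A8 (0.48, limma adjusted p 0.00644), SLC39A9 (0.31, 0.0440) and SLC39A14 (0.58, 0.00809) were higher, and SLC39A3 and SLC39A13 (-0.44, 0.00767) were lower. In KO-labelled line 2 the block gave 2 higher, SLC39A4 (0.49, 0.00667) and SLC39A14 (0.38, 0.0497), and 2 lower, SLC39A10 and SLC39A3 (-0.39, 0.0207), against 27.4% of all genes. Between the arms 0 of the 6 exporter and 0 of the 10 importer genes were called by limma, with 1 and 2 at an unadjusted p under 0.05, 0 and 0 called by edgeR and 1 and 1 by DESeq2. Between the control lines 0 and 0 were called by limma, edgeR and DESeq2, with 0 and 1 at an unadjusted limma p under 0.05. Under the block 1 importer gene, SLC39A14, was called as higher in control line 2 (0.56, limma adjusted p 0.0328). Between replicates, where 17.6% of all genes were called, 1 of 6 exporter and 4 of 10 importer genes were. SLC30A7 (0.38, limma adjusted p 0.0201), SLC39A4 (0.41, 0.0125), SLC39A10 (0.28, 0.0242) and SLC39A13 (0.30, 0.0277) were called as higher in replicate 2 and SLC39A9 (-0.27, 0.0447) as lower. SLC39A7 had at most 2.58 normalized counts.

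**Figure D4:**
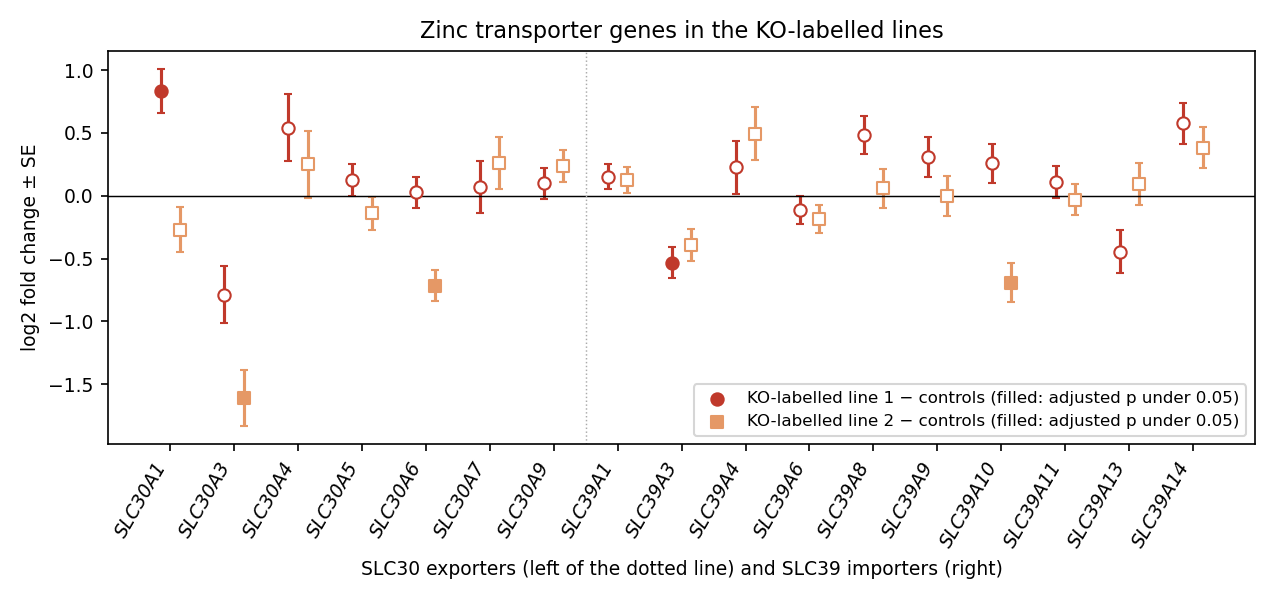
Log2 fold change ± SE (y axis) against both control lines for SLC30A1 and the tested SLC30 and SLC39 genes (x axis), with circles for KO-labelled line 1, squares for KO-labelled line 2 and filled symbols for a limma adjusted p under 0.05. SLC30A1 is called in line 1 (0.83), and the called genes of line 2 are SLC30A3 (-1.61), SLC30A6 (-0.72) and SLC39A10 (-0.69).

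Genes of other metallothionein inducers were counted in the same way. Of 12 heavy metal and heat stress genes, 10 were tested. HMOX1, heme oxygenase 1, rose in KO-labelled line 1 to 4487 and 4373 normalized counts, against 1300 to 2528 in control (log2 fold change 1.28, limma adjusted p 0.0383). It was the 1 gene of the 10 called in that line, where 7.01% of all genes were called, with a list median of 0.25. Under the replicate block 5 were called there, all higher, against 24.4% of all genes. They were HMOX1, GCLC (0.81, limma adjusted p 0.000196), GCLM (0.59, 0.000686), TXNRD1 (0.48, 0.00570) and SLC7A11 (0.43, 0.0155). Between the KO-labelled lines all 10 had a log2 difference below 0 in line 2 against line 1, from -0.98 to -0.07. Of them 0 were called by limma or edgeR, 4 by DESeq2, and 5 had an unadjusted limma p under 0.05. Of all 14040 tested genes, 49.4% were above 0, 3394 had an unadjusted limma p under 0.05 and 6.94% were called by limma. The blocked fit called 5 as lower in line 2, against 24.5% of all genes, namely GCLC (-0.69, limma adjusted p 0.00149), GCLM (-0.64, 0.00117), SLC7A11 (-0.74, 0.00185), TXNRD1 (-0.64, 0.00263) and HMOX1 (-0.98, 0.0285). Between replicates 5 of the 10 were called and all 5 were lower in replicate 2, opposite in sign to MT2A and MT1X, against 17.6% of all genes called (8.62% as lower). The 5 were the glutathione synthesis genes GCLC (-0.67, limma adjusted p 0.000702) and GCLM (-0.30, 0.0177), the thioredoxin reductase gene TXNRD1 (-0.34, 0.0177), the cystine transporter gene SLC7A11 (-0.32, 0.0320) and SRXN1, sulfiredoxin (-0.51, 0.00221). HSPA1A and HSPA1B, near-identical copies, had at most 7.26 normalized counts, and their values are uncertain for that reason.

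Of 10 glucocorticoid-responsive genes, 9 were tested. Between replicates 1 was called as higher in replicate 2 (ERRFI1, 0.41, limma adjusted p 0.0116) and 3 as lower, against 8.97% and 8.62% of all genes, with a list median of -0.24. The lower ones were CRISPLD2 (-0.68, 0.00997), DUSP1 (-0.57, 0.0129) and NR3C1, the glucocorticoid receptor gene itself (-0.52, 0.00130). SGK1, a kinase gene, was lower in KO-labelled line 1, at 84.5 and 91.3 against 169 to 237 in control (-1.16, limma adjusted p 0.00859). It was higher in KO-labelled line 2 than in KO-labelled line 1 (1.53, limma adjusted p 0.00706). It was the 1 gene of the 9 called in each of these comparisons. Under the replicate block 3 were called as higher (FKBP5, NR3C1 and ERRFI1) and 2 as lower (SGK1 and CRISPLD2) in KO-labelled line 1, against 24.4% of all genes. Between the KO-labelled lines it gave 2 as higher in line 2 (SGK1 and CRISPLD2) and 1 as lower (FKBP5), against 24.5%. The block gave 3 as higher in KO-labelled line 2 against control (CRISPLD2, NR3C1 and TSC22D3), against 0 without it, where edgeR and DESeq2 also gave 0 and 1 had an unadjusted limma p under 0.05. Between the control lines 0 were called by limma or edgeR and 1 by DESeq2. Under the block 2 were lower in control line 2, CRISPLD2 (-1.79, limma adjusted p 0.000252) and KLF9 (-1.19, 0.0361), against 12.5% of all genes. CRISPLD2 lies on chromosome 16, where 569 of 650 tested genes were lower in control line 2. The part of that shift in its difference was not tested. CRISPLD2 was at 410 to 2666 normalized counts in control, and every KO-labelled library lay within that range.

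The genes most like the expressed metallothioneins were taken from 11233 genes with a mean of at least 50 normalized counts, by Pearson's r over the 8 libraries with the mean log2 value of MT2A and MT1X. They were EVI2A (r = 0.97), CSRP2 (0.97), UBE2E1 (0.97), ARF4 (0.97) and TCOF1 (0.97), on chromosomes 17, 12, 3, 3 and 5. EVI2A had 158 and 254 normalized counts in control line 1, 47.3 and 106 in control line 2, 47.8 and 62.2 in KO-labelled line 1, and 56.9 and 191 in KO-labelled line 2. It was higher in replicate 2 of every line, as were MT2A, MT1X and 20.2% of all tested genes. EVI2A was picked for its likeness over these same libraries, so the shared step is not separate evidence. SLC30A1 and MTF1 went against MT2A over the same libraries, with Pearson's r of -0.61 and -0.67, and had an r of 0.75 with each other. These values describe 8 libraries that share lines and replicate numbers.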

How the data were processed

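The authors deposited a normalized signal per gene, named by Entrez identifier, and per the file headers it came from featureCounts counts. By its values it is a count divided by 1 size factor per library. The submitters' processing notes name fastp 0.23.2, HISAT2 2.2.1, featureCounts 2.0.1 and DESeq2 2.11.40.8 and the builds hg38 and GRCh38. Strand use and read length are not given in the sources used here. Divided by what 1 read is worth in its library, 100% of values came out whole (within 0.01 reads), so whole reads were recovered. Symbols and positions came from RefSeq (GRCh38.p14), which named 27745 identifiers.

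Genes with at least 10 normalized counts in at least 2 libraries (14040) were log-transformed as log2(value + 1) and tested with limma 3.58.1 under R 4.3.3, with p-values adjusted by Benjamini-Hochberg over all of them. The arms were compared with the line as a random block (duplicateCorrelation, 0.33), single lines with 1 mean per line, and replicates with the line as a fixed block. Alternatives covered pseudocount, filter, scaling, edgeR 4.0.16 and DESeq2 1.42.0 on recovered reads, each library left out, and the replicate block. Between the arms the edgeR and DESeq2 tests both take libraries of a line as independent, and edgeR called 187 genes. Fits were tested on simulated data.

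Replicate numbers come from the sample titles. The difference between replicates correlated across genes in all 6 pairs of lines (Pearson's r 0.285 to 0.501, limit 0.1), so blocked values are printed where they change the call of a member or a list count given in the text. The members and lists were chosen with earlier results of these data known. By rule, up to 4 called genes with the largest changes were named from each list. SLC39A8, SLC39A9, SLC39A14, GCLM, SLC7A11, ERRFI1, FKBP5, TSC22D3, BBS2, NUP93, COL1A1, MAP2 and GFAP lie outside that rule and were chosen after their values were seen. The same holds for CD68, KRT8, KRT18, KLF9 and MMP2. Likeness was ranked over genes with a mean of at least 50. Motifs were searched in 250 bases before each gene start.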

Additional observations from a re-analysis of the deposited data

Results flagged for a closer look

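SLC30A1 differed between the KO-labelled lines when their effects were compared directly. The log2 difference, line 2 minus line 1, was -1.10 (limma adjusted p 0.0195). Against the same control libraries line 1 had a log2 fold change of 0.83 and line 2 of -0.27, and the difference was -0.88 within replicate 1 and -1.33 within replicate 2.

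In 11 groups of 4 libraries with any spread, 2 had 1 library far from the others by Dixon's test. Both hold a single read. MT1F had 1.04 normalized counts in replicate 2 of control line 1 and 0 in the other control libraries. MT1G had 0.919 in replicate 1 of control line 1 and 0 in the other 3. A single read against values of 0 gives a gap equal to the whole range, so these flags were fixed by the count. The usual chance rate of about 1 in 20 groups does not apply to them.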

How the results depend on the processing

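For the 4 tested members, 440 values were recomputed under alternatives, and 406 kept their direction and their side of the threshold, 10 lost a call, 9 gained one and 15 changed sign. With the replicate number as a block, 3 members were called in KO-labelled line 1 (1 without it), 2 between the control lines (0 without) and 2 between the KO-labelled lines (1 without), and no other call of a member changed. Leaving out 1 library gave 0 to 1 members for each of these 3 comparisons and 2 to 3 between replicates. Without the line as a block, 0 members and 0 genes were called between replicates by limma, with 1 member and 1624 genes at an unadjusted p under 0.05.

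Signs changed where the log2 fold change was near 0 or a single library carried it. For KO-labelled line 2 against control, MT2A was 0.0589 with edgeR and 0.0590 with DESeq2, MTF1 was -0.00748 with equal totals, and leaving out 1 library gave -0.83 to 0.67 for MT2A, -1.19 to 0.42 for MT1X, -0.20 to 0.22 for MTF1 and -0.30 to 0.10 for ANXA4. Between the KO-labelled lines it gave -0.12 to 1.38 for MT2A and -0.25 to 1.36 for MT1X, and between the control lines -0.39 to 0.26 for MTF1 and -0.0439 to 0.41 for SLC30A1. The cause was not tested.

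Over all genes, 33 were called between the arms, and 71 without the filter, 187 with edgeR, 848 with DESeq2, 1474 with 1 fixed mean per line and 0 with line means (1086 at an unadjusted limma p under 0.05). Between the control lines 299 were called, 183 without the filter and 647 with DESeq2. The block raised the counts from 984 to 3432 (KO-labelled line 1), 1573 to 3851 (line 2), 299 to 1752 (control lines) and 975 to 3442 (KO-labelled lines). Leaving out 1 library gave 7 to 39 between the arms, 148 to 1312 and 813 to 1363 for the KO-labelled lines, 43 to 410 and 87 to 1003 between lines, and 706 to 2274 of 2470 between replicates.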
